A study of Mus musculus with 104 samples.

Results

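CpG methylation was compared between the heads of Kmt2b knockout (KO) and wild-type (WT) mouse embryos at embryonic day 8.5. The comparison takes up 4 of the 104 samples of the series, 2 labelled KO with the genotype Kmt2b-/- and 2 labelled WT, and it covers the 20364700 CpGs of chromosomes 1 to 19 among the 21342492 CpGs listed in each file. The series profiles chromatin, DNA methylation and RNA around gastrulation, with mutants of Kmt2b and of Tet1 and Tet2 beside wild-type tissues. Heads were cut off close to the neck, so they hold neural tissue together with the other cell types of an early head, and fewer cells of a type cannot be told apart from a change in each cell. Methylation counts hold no marker levels, so the tissue label was not checked in these samples. Methylation was read with STEM-seq, a bisulfite sequencing method for small samples. The labels give no promoter or Cre for the knockout, and they do not say whether the 2 samples of a group came from different embryos or litters, or on which strain background the mutants were kept.

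Bisulfite converts unmethylated cytosine so that it is sequenced as T, while methylated cytosine is still sequenced as C. In mammals most isolated CpGs carry methylation, and the dense clusters called CpG islands, which include many promoters, mostly do not. Kmt2b encodes a histone methyltransferase with a CXXC domain that binds unmethylated CpGs and it adds methyl groups to lysine 4 of histone H3. The ADD domain of the de novo DNA methyltransferases Dnmt3a and Dnmt3b binds the H3 tail only where lysine 4 is unmethylated, so the presence or absence of Kmt2b bears on a question about methylation at CpG-dense sequence.

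Each group was given as 1 file in which the reads of its 2 samples were pooled. There is therefore no spread between replicates, no difference below has a test, and calls are made by size. Methylation level means methylated reads as a percent of all reads, differences are KO minus WT in percentage points, and 95% Wilson intervals cover counting error only. The KO file held 41028932 reads over CpGs of chromosomes 1 to 19 and the WT file 44152720, which is 2.01 reads per CpG in KO and 2.17 in WT. At least 1 read covered 75.2% of CpGs in KO and 76.7% in WT, and at least 5 reads covered 9.65% in KO and 11.4% in WT. As a check on error beyond counting, plus-strand and minus-strand reads were also treated apart: levels of 1 kb windows on the 2 strands correlated with r = 0.751 in KO over 377101 windows and r = 0.760 in WT over 413282 windows, with at least 10 reads a strand. The strands share the sample and the library, so their likeness says nothing of how embryos vary.

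Genome-wide, both groups were about as methylated, with a level slightly lower in KO heads. The level was 67.58% in KO (95% interval 67.57 to 67.60) and 68.11% in WT (68.09 to 68.12), a difference of -0.525 points. It was -0.548 points on plus-strand reads and -0.502 on minus-strand reads. The intervals do not overlap, but they leave out the spread between embryos, and the size and even the direction of so small a difference depended on how the genome was averaged: the mean over 1 kb windows was 77.4% in KO and 78.0% in WT, while the mean over the 660693 CpGs with at least 5 reads in each group was 36.34% in KO and 36.32% in WT. The low value of that last mean goes with where the deep reads lie, since 319575 of those CpGs are in 1 kb windows of at least 40 CpGs.

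The KO to WT difference changed sign with CpG density. CpG-poor windows were slightly less methylated in KO heads and CpG-dense windows slightly more. In windows of 1 to 4 CpGs the level was 78.6% in KO and 79.3% in WT. In windows of 5 to 9 CpGs it was 79.9% in KO and 80.7% in WT, and in windows of 10 to 19 CpGs it was 79.20% in KO and 80.04% in WT, a difference of -0.839 points. Together, these windows of under 20 CpGs hold 16289229 CpGs, and the deficit in KO was -0.793 points on plus-strand reads and -0.814 on minus-strand reads.

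Windows of 20 to 29 CpGs had 73.4% in KO and 74.1% in WT. Windows of 30 to 39 CpGs were the crossing point, with 51.79% in KO and 51.75% in WT, where the difference was 0.155 points on plus-strand reads and -0.0765 on minus-strand reads and so had no stable sign. Above it, KO was higher in every class and on both strands. Windows of 40 to 49 CpGs had 25.9% in KO and 25.1% in WT, and windows of 50 to 59 CpGs had 13.7% in KO and 12.7% in WT. The 9911 densest windows, of 60 or more CpGs, had 3.94% in KO (3.92 to 3.96) and 3.31% in WT (3.29 to 3.32), a difference of 0.633 points that was 0.678 on plus-strand and 0.589 on minus-strand reads. Depth moved with density: windows of 1 to 4 CpGs had 1.32 reads per CpG in KO and 1.41 in WT, and windows of 60 or more CpGs had 4.83 in KO and 5.18 in WT. Its part in the pattern was not tested.

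**Figure D1:**
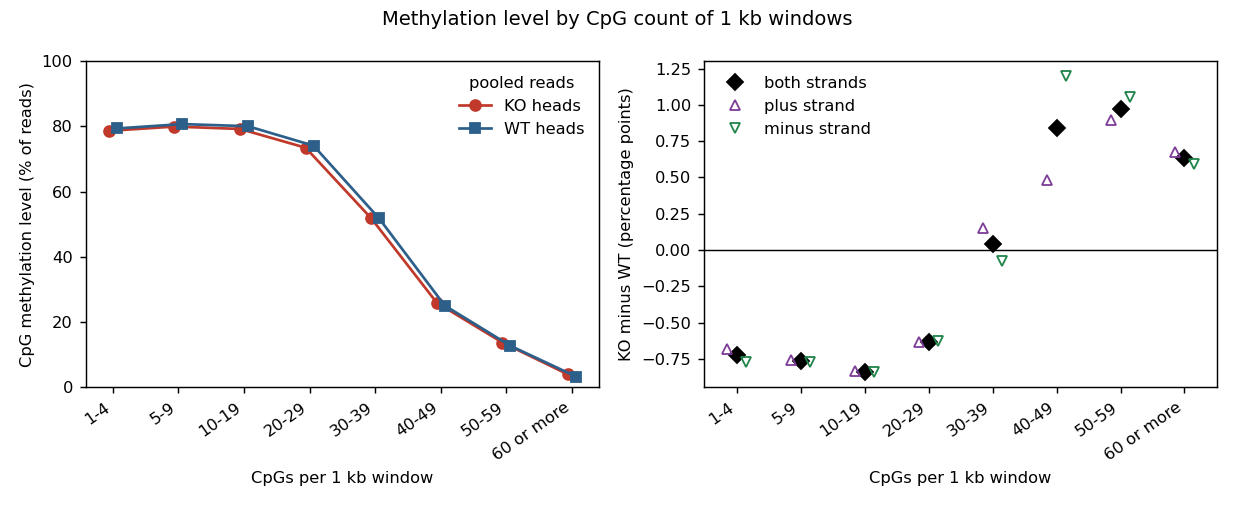
Pooled CpG methylation level of KO and WT heads (left, percent of reads) and the KO minus WT difference (right, percentage points) against the number of CpGs per 1 kb window. Diamonds use reads of both strands and open triangles the reads of 1 strand; the difference lies below 0 up to 20 to 29 CpGs and above 0 from 40 to 49 CpGs.

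A difference of under 1 point in the densest class could come from many windows or from few, so the distribution over windows was set beside the mean. Among 9857 windows of 60 or more CpGs with at least 10 reads in each group, the median level was 1.47% in KO and 1.18% in WT, and the 90th percentile was 7.55% in KO and 5.41% in WT. The 95th percentile was 34.5% in KO and 22.8% in WT. KO was higher in 5995 of these windows and lower in 3791. The median difference was 0.297 points. Unmethylated cytosines that bisulfite left unconverted would be counted as methylated, and conversion rates are not given in the sources used here. The part of unequal conversion in so small a shift was not tested. At larger sizes the imbalance was greater, with 550 windows at least 5 points higher in KO and 123 at least 5 points lower, 232 higher and 58 lower at 10 points, and 76 higher and 13 lower at 20 points.

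Dense windows of high level were few in both groups. A level of at least 20% was reached by 610 of the 9857 windows in KO and 522 in WT, and a level of at least 80% by 333 in KO and 298 in WT. The share of windows under 5% was 85.7% in KO and 89.3% in WT. The share between 5% and 10% was 5.91% in KO and 3.72% in WT. No methylated read was found in 381 windows in KO and 478 in WT.

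Over all 976820 windows with at least 10 reads in each group, 57.4% lay above 80% in KO and 59.3% in WT. Between 20% and 80% lay 38.8% in KO and 36.7% in WT, and under 20% lay 3.86% in KO and 3.97% in WT. KO heads thus had more windows of intermediate level and fewer at either end. The KO file also had fewer reads, whose part in this was not tested. The median window was at 83.3% in KO and 83.8% in WT. Single CpGs with at least 5 reads in each group had the same order: 21.8% were between 20% and 80% in KO and 20.7% in WT, while 47.97% had no methylated read in KO and 48.95% in WT, and 18.6% were fully methylated in KO and 18.8% in WT. Of such CpGs in windows of 40 or more CpGs, 86.2% had no methylated read in KO and 88.0% in WT. In windows of under 20 CpGs the order was the other way, with 6.38% in KO and 6.19% in WT.

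**Figure D2:**
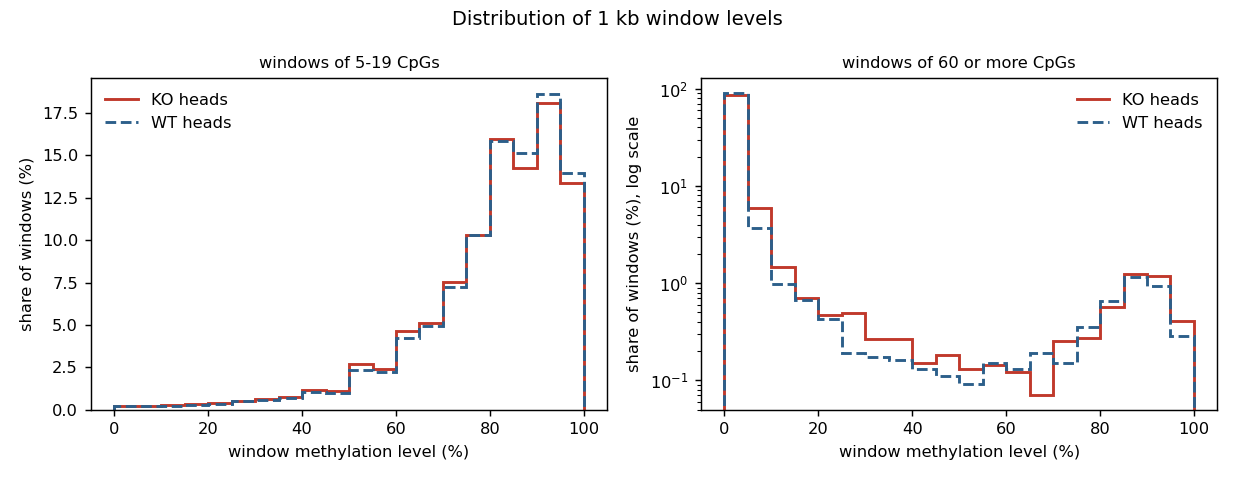
Share of 1 kb windows (vertical axis, percent, on a log scale in the right panel) in each 5-point step of methylation level (horizontal axis, percent) in KO heads (solid) and WT heads (dashed), with at least 10 reads in each group. Among windows of 60 or more CpGs the step under 5% holds 85.7% in KO and 89.3% in WT, and the KO line lies above the WT line between 5% and 40%.

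Next, single 1 kb windows with a large difference were counted. With at least 30 reads in each group, 1245 of 238921 windows (0.521%) were at least 30 points higher in KO and 1360 (0.569%) were at least 30 points lower. Which direction held more windows changed with the reads asked for. With a minimum of 20 reads 3968 of 458908 were higher and 5082 lower, and with 50 reads 299 of 85976 were higher and 156 lower. With 30 reads of the plus strand alone 537 of 60894 were higher and 399 lower, and of the minus strand alone 534 of 60984 were higher and 380 lower. A higher minimum also changed the mix of CpG counts. Of 9857 windows of 60 or more CpGs with 10 reads in each group, 9781 had 30. Of 854502 windows of under 20 CpGs, 135001 did. The part of this mix in the change of direction was not tested. In dense windows more were higher: among the 36018 windows of 30 or more CpGs, 174 were higher in KO (0.483%) and 30 lower (0.0833%). Among the 9781 of 60 or more CpGs, 24 were higher and 1 was lower. Most windows of these 2 classes could not be 30 points lower. With 10 reads in each group, their WT medians were 7.48% at 30 or more CpGs and 1.18% at 60 or more. In windows of under 20 CpGs, 714 of 135001 were higher (0.529%) and 1030 lower (0.763%). Differences of windows had an SD of 10.1 points, against 7.27 points from the read counts alone.

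Because a window chosen for a large difference will look large in the same reads, windows were also chosen on the reads of 1 strand and read on the other. Over all windows little of the difference was carried across. Of the 2182 windows at least 30 points higher in KO on plus-strand reads, with at least 15 reads a strand and group, 6.92% were at least 30 points higher on minus-strand reads, where 1.79% of all windows were, and their median there was 2.04 points. Of the 2229 windows chosen as lower, 3.99% were at least 30 points lower on minus-strand reads, where 1.84% of all windows were, with a median of -0.65 points. Across 120255 windows the differences on the 2 strands correlated with r = 0.0379.

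In windows of 30 or more CpGs more of the difference was carried across when windows were chosen as higher in KO. Of the 359 windows of 30 or more CpGs chosen as higher in KO on plus-strand reads, 68.0% were also higher on minus-strand reads, where 54.1% of all windows of that class were. Their median difference there was 7.42 points, and 14.8% were at least 30 points higher, against 1.09% of the class. Chosen on minus-strand reads, 349 windows had a median of 8.24 points on plus-strand reads. The 150 windows of that class chosen as lower on plus-strand reads had a median of 0.34 points on minus-strand reads, and 48.7% of them were lower there, against 41.2% of the class. At least 30 points lower on minus-strand reads were 4.67% of them, against 0.508% of the class, so a few of the windows chosen as lower were lower on the other strand too. In windows of under 20 CpGs the medians on the other strand lay between -0.88 and 0 points for either direction of choice.

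**Figure D3:**
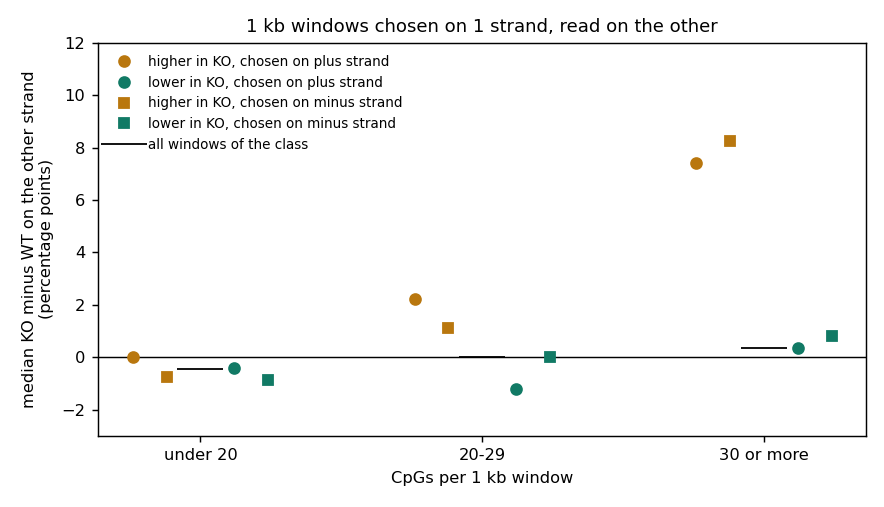
Median KO minus WT difference (vertical axis, percentage points) on the strand that was not used to choose the windows, for 1 kb windows at least 30 points higher or lower in KO on the strand used, in 3 classes of CpGs per window. Short lines give the median of all windows of the class, averaged over the 2 strands; among windows of 30 or more CpGs, those chosen as higher had medians of 7.42 and 8.24 points, and those chosen as lower 0.34 and 0.79.

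The largest single differences were taken from the 40882 windows with at least 10 CpGs, at least 50 reads in each group and the same sign on both strands. They are extremes of that pool and were not tested. Positions are on mouse build mm9, as the files give them, and no gene is assigned to them here. The window highest in KO against WT, chr14:77139001-77140000 with 22 CpGs, had 48 methylated of 62 reads in KO (77.4%) and 12 of 79 in WT (15.2%). The window chr4:33582001-33583000 with 27 CpGs had 73.2% in KO and 12.8% in WT. The window chr1:195000001-195001000 with 25 CpGs had 92.0% in KO and 32.5% in WT, and it was the most even over the strands, at 59.3 points on each.

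The other 2 windows highest in KO were chr9:96254001-96255000, with 43 methylated of 59 reads in KO and 8 of 50 in WT, and chr5:74522001-74523000, with 37 CpGs, 74.7% in KO and 19.4% in WT. In the opposite direction, chr1:63311001-63312000 with 25 CpGs had 11 methylated of 52 reads in KO (21.2%) and 53 of 65 in WT (81.5%). The window chr4:49646001-49647000 had 33.3% in KO and 88.5% in WT. The remaining 3 windows lowest in KO, on chromosomes 1, 5 and 6, had levels of up to 46.4% in KO and between 64.1% and 95.7% in WT. Most of these differences were uneven over the strands. Among the 5 windows highest in KO they ranged from 27.3 to 73.7 points on plus-strand reads and from 46.2 to 70.6 on minus-strand reads, with 36.7 and 70.6 on these strands in the first window named. Among the 5 lowest they ranged from -77.2 to -52.5 points on plus-strand reads and from -59.4 to -11.0 on minus-strand reads. None of the 10 had a CpG with more than 20 reads in either group, a depth far above the genome's average.

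Windows of 100 kb average over islands and the sequence between them. Their level was lower the more CpGs they held, from 79.0% in KO and 79.7% in WT under 500 CpGs to 45.9% in KO and 46.1% in WT at 2000 or more CpGs. KO was lower in every class and on both strands, by at most 0.737 points over both strands together. The gap was smallest in the 69 windows of the densest class, where the 95% intervals overlapped (45.76 to 46.04 in KO and 45.95 to 46.22 in WT). There it was 0.0407 points in favour of KO once the 76 regions described below were left out. Classes in between had 77.0% in KO and 77.4% in WT (500 to under 750 CpGs), 71.2% in KO and 71.6% in WT (750 to under 1000), 64.7% in KO and 65.3% in WT (1000 to under 1500), and 56.1% in KO and 56.6% in WT (1500 to under 2000). The median 100 kb window was at 78.3% in KO and 79.0% in WT.

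Of 22111 windows of 100 kb with at least 500 reads in each group, 949 (4.29%) were at least 5 points higher in KO and 1318 (5.96%) at least 5 points lower. With the genome-wide difference taken off, 1251 were higher and 986 lower (55.9% higher, against 41.9% without this step). Their differences had an SD of 3.11 points, against 1.65 points from the read counts alone. Of the 1818 windows chosen as higher in KO on plus-strand reads, 17.99% were at least 5 points higher on minus-strand reads, where 8.38% of all windows were. For the 2572 chosen as lower these shares were 18.9% of those chosen and 11.6% of all windows. The strands correlated with r = 0.110 over 21340 windows.

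The largest differences at this scale were chr19:61300001-61400000, with 56.8% of 2070 reads in KO and 33.4% of 2086 in WT, and chr2:83900001-84000000, with 85.6% of 947 reads in KO and 65.5% of 513 in WT. The window on chromosome 19 differed by 28.7 points on plus-strand and 18.8 on minus-strand reads. It alone among the named 100 kb windows had reads in CpGs with more than 20 reads, 92 in KO and 83 in WT. Its difference was 24.5 points without those CpGs. The other 3 windows highest in KO, 2 on chromosome 12 and 1 on chromosome 13, had levels between 47.8% and 64.5% in KO and between 30.3% and 46.6% in WT. The 2 on chromosome 12 were thinly read. They had 637 reads in KO and 844 in WT for 984 CpGs, and 619 in KO and 627 in WT for 893 CpGs. Windows of 750 to under 1000 CpGs had 1.85 reads per CpG in KO and 1.99 in WT. In the other direction chr9:9200001-9300000 had 45.6% of 1534 reads in KO and 61.4% of 1315 in WT. The other 4 windows lowest in KO, 3 on chromosome 8 and 1 on chromosome 1, had 59.9% to 62.9% in KO and 75.3% to 77.8% in WT. All 4, and of the windows highest in KO the one on chromosome 2, lie in the 76 regions of unequal zero CpGs described below. Of the 10 named windows of 1 kb, 1 does, chr1:34723001-34724000, which was lower in KO.

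Differences ran together over several megabases. In 492 regions of 5 Mb, over CpGs with up to 20 reads, the difference ranged from -4.85 to 4.53 points with a median of -0.562, and 360 regions were lower in KO and 132 higher. At least 2 points separated 48 regions, 35 lower and 13 higher in KO, each with the same sign on both strands. The strands correlated with r = 0.610, and adjacent regions with r = 0.540 over 472 pairs. The region lowest in KO, chr8:30000001-35000000, had 65.8% in KO and 70.7% in WT, and its neighbour chr8:35000001-40000000 had 63.2% in KO and 67.6% in WT. The region highest in KO, chr2:50000001-55000000, had 75.4% in KO and 70.9% in WT, and chr2:85000001-90000000 had 81.5% in KO and 77.1% in WT.

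By chromosome, KO was lower on 17 of 19 and higher on chromosomes 2 (by 0.285 points) and 3 (by 0.150), with the same sign on both strands for each. Over CpGs with up to 20 reads, as used for the 5 Mb regions, chromosome 9 changed sign (0.0762 points, against -0.425 over all CpGs), chromosome 2 had 0.506 points, and chromosome 17 had -1.41 points, against -0.854 over all CpGs. The lowest was chromosome 8, with 66.7% in KO and 68.3% in WT. In windows of 40 or more CpGs, by contrast, KO was higher on all 19 chromosomes, by 0.135 to 1.11 points, chromosome 8 included, with 9.77% in KO and 9.21% in WT. The higher level in dense windows was therefore present on all 19 chromosomes, though uneven in size, while over all CpGs the sign varied too. Windows of under 40 CpGs were not taken apart by chromosome.

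**Figure D4:**
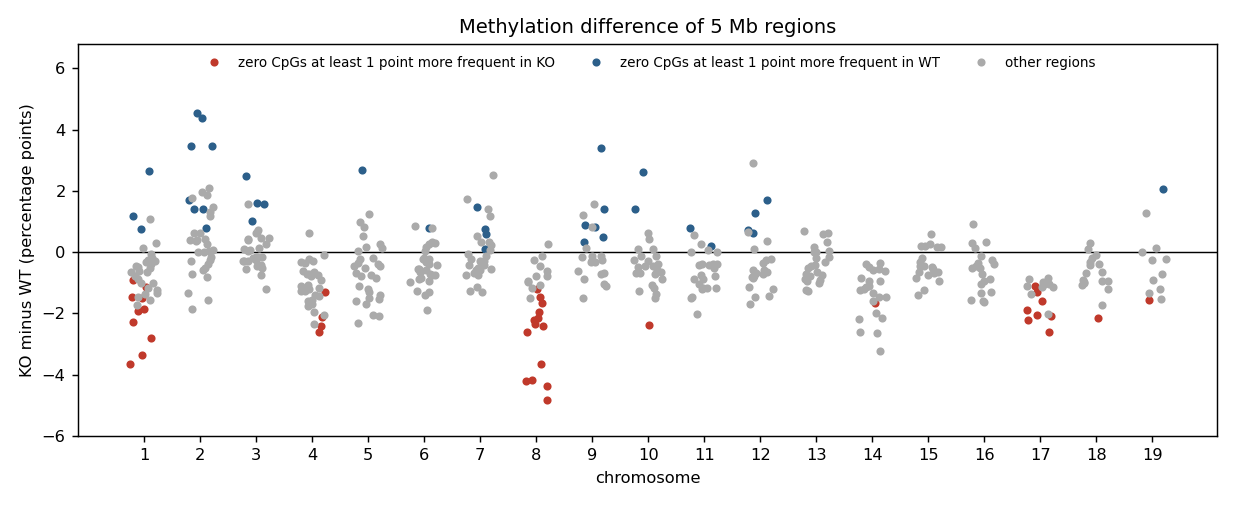
KO minus WT difference in methylation level (vertical axis, percentage points) of 492 regions of 5 Mb on chromosomes 1 to 19 (horizontal axis); points are spread sideways at random. Red and blue regions have at least 1 point more zero CpGs, defined in the text, in KO and in WT, and the regions furthest from 0 are mostly on chromosomes 8, 1 and 2.

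A second measure moved with these blocks. Zero CpGs were counted as CpGs with at least 4 reads, none of them methylated, in 1 kb windows whose other CpGs were at least 80% methylated over at least 10 reads; a CpG that is absent from the animals' own sequence and reads as T would be counted among them. Genome-wide they made up 1.06% of such CpGs in KO and 0.951% in WT. In chr8:30000001-35000000 they made up 6.81% in KO and 1.38% in WT, and in chr8:35000001-40000000 8.56% in KO and 1.44% in WT. In chr2:50000001-55000000 they made up 0.512% in KO and 4.70% in WT, and in chr2:85000001-90000000 0.710% in KO and 4.37% in WT. The number of reads moved too: the ratio of KO to WT reads, relative to the median region, was 0.923 in the first of these regions and 1.099 in the last.

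Over the 492 regions the methylation difference correlated with the zero-CpG difference at r = -0.752 and with the read ratio at r = 0.617. These are descriptions: all 3 measures come from the same reads, and adjacent regions are not independent. Zero CpGs differed by at least 1 point in 76 regions. In the 40 with more in KO the level was lower in KO in all 40, with a median of -2.13 points, and in the 36 with more in WT it was higher in KO in all 36, with a median of 1.42. The unmethylated reads of zero CpGs are part of the region's level and lower it, so these directions were partly set by the definition. Those with more in KO included 14 of 26 regions of chromosome 8, 10 of 39 of chromosome 1 and 8 of 19 of chromosome 17, and those with more in WT 8 of 37 of chromosome 2 and 6 of 24 of chromosome 9. Differences in the animals' own sequence between the pools were not tested, and strain and genotype cannot be told apart there.

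In the other 416 regions the SD of the difference was 0.813 points, against 1.14 over all, the median was -0.557 and KO was lower in 320. Without the 76 regions the difference by CpG count was of the same size, at -0.845 points in windows of under 20 CpGs and 0.712 in windows of 40 or more, against -0.803 and 0.716 with them. Of the windows of 30 or more CpGs, 151 of 31573 were then at least 30 points higher in KO and 25 lower. The density pattern was thus as large outside the blocks.

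**Figure D5:**
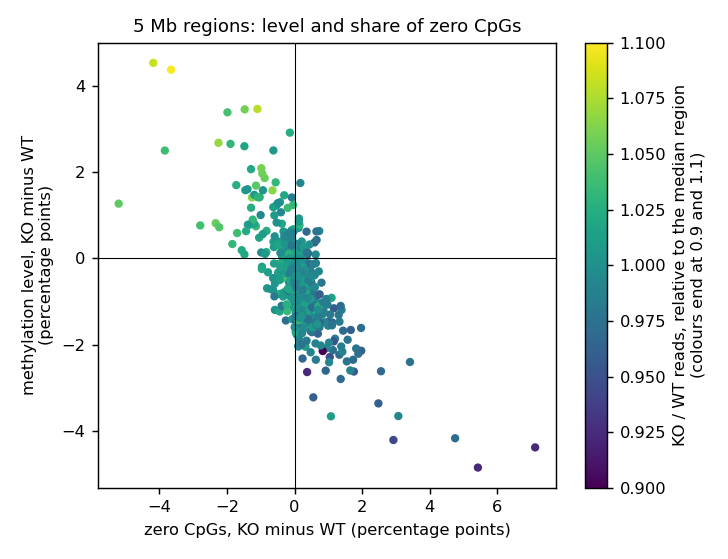
KO minus WT difference in methylation level against the KO minus WT difference in the share of zero CpGs (both in percentage points) for 492 regions of 5 Mb, coloured by the ratio of KO to WT reads relative to the median region. The points run from the upper left, with high read ratios, to the lower right, with low ones.

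Dense windows were also grouped by their level in Kmt2b KO epiblasts at embryonic day 6.5, from 1 file that pools 3 samples and uses neither head file, though it shares its genotype with the KO heads. The epiblast, the tissue from which the embryo proper forms, had a level of 67.8% overall. In windows of 40 or more CpGs that were under 20% in KO epiblasts, heads had 2.68% in KO and 2.14% in WT, over 16126 windows. In the 1409 windows at 20 to 40% in KO epiblasts, heads had 15.2% in KO and 11.3% in WT. The 519 windows at 40 to 60% had the widest gap, with 46.8% in KO heads and 37.4% in WT heads, a difference of 9.33 points that was 9.20 on plus-strand and 9.47 on minus-strand reads; KO was higher in 77.1% of them.

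In the 956 dense windows at 60 to 80% in KO epiblasts, heads had 79.8% in KO and 76.0% in WT, and in the 2534 above 80% they had 88.5% in KO and 87.2% in WT. The excess in KO heads was thus present in each of the 5 groups of dense windows, and largest at intermediate epiblast level. Windows of under 20 CpGs at 40 to 60% in KO epiblasts went the other way, with 69.7% in KO heads and 70.9% in WT heads. For such CpG-poor windows the difference was also below 0 at 20 to 40% (-0.871 points), 60 to 80% (-1.02) and above 80% (-0.737). The 7553 CpG-poor windows under 20% in KO epiblasts were instead higher in KO heads, by 0.995 points. This was 1.56 points on plus-strand and 0.343 on minus-strand reads. No WT epiblast methylation file was used, so how these windows stood in WT epiblasts was not analysed here.

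RNA from other E8.5 head libraries, 2 KO and 3 WT, was given by the authors as 1 merged FPKM column per group, so it has no spread and no test. The targeted gene, listed under its older symbol Wbp7, had 0.133 FPKM in KO and 0.600 in WT, low in both. Dnmt3b, a de novo DNA methyltransferase, had 93.4 FPKM in KO and 55.2 in WT, a difference of 0.75 on the log2(FPKM + 1) scale and the largest among the 12 genes looked up. Dnmt3a, the other de novo enzyme, had 7.21 in KO and 6.51 in WT, and Dnmt3l, their cofactor, had 0.532 in KO and 0.334 in WT. Of the maintenance pair, Dnmt1 had 14.5 in KO and 17.8 in WT and its partner Uhrf1 had 61.5 in KO and 72.9 in WT.

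The dioxygenases that oxidise 5-methylcytosine differed by less than Dnmt3b on that scale. Tet1 had 3.239 FPKM in KO and 2.499 in WT, Tet2 had 0.478 in KO and 0.315 in WT, and Tet3 had 2.86 in KO and 3.27 in WT. Tdg, the glycosylase that removes oxidised 5-methylcytosine, had 8.13 in KO and 7.91 in WT. The H3K4 demethylase Kdm1b had 4.99 in KO and 4.23 in WT, and Mll1, a related H3K4 methyltransferase also called Kmt2a, had 1.74 in KO and 1.29 in WT. The part of any of these levels in the methylation differences was not tested.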

How the data were processed

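Per the labels' protocols the DNA libraries were made with STEM-seq. The submitters' processing notes name Trim Galore, BS-Seeker2 and build mm9 for them; filters, duplicate removal and conversion rates are not given in the sources used here. The deposited methylation files hold, per CpG and strand, counts of methylated and unmethylated reads, pooled over the samples of a group by the authors. The RNA values are FPKM merged per group by the authors, per the column names of the deposited table, and the submitters' notes name TopHat2 2.0.11 and Cufflinks 2.0.2. Of its columns, 2 match no listed sample and were not used.

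Levels were computed with Python 3.11.15 and NumPy 2.4.6 as methylated over all reads, in fixed windows of 1 kb and 100 kb that take positions as counted from 1, which the files do not state. Calls needed 30 points and 30 reads in each group (1 kb) or 5 points and 500 reads (100 kb); distributions needed 10 or 500 reads. Named windows were the 5 with the largest difference in each direction, as the report says; windows of chromosome 18 were counted and not named. FPKM differences used a pseudocount of 1. The window script was tested on simulated reads of 1 chromosome with shifts of known size in some windows. Those reads had no spread beyond read counts, so that test does not show how many calls in these data are false. The files pool replicates, so no test was made, and pairing by replicate number could not be checked. Reads without molecular identifiers are not independent molecules, and CpGs on 1 read are not independent, so the 95% Wilson intervals are too narrow. The comparison, windows, genes and classes were chosen with earlier results of these data known; the 5 Mb regions, zero CpGs and the leaving out of regions were chosen after seeing the data. An annotation of build mm9 was not used here, so windows carry no gene names, and no sequence is shown.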

Additional observations from a re-analysis of the deposited data

How the results depend on the processing

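No paired analysis was possible because the files pool the samples of a group; leaving out single replicates could not be run for the same reason. Of the 74 alternative values for the main results, 47 stayed close, 24 moved and 3 changed sign. Of those for the named windows, 45 stayed close, 15 moved and none changed sign. The named 1 kb windows were picked for the same sign on both strands, so their strand values could not change sign. Leaving out CpGs with more than 20 reads altered only chr19:61300001-61400000, since no other named window had such CpGs. The causes were not tested unless given. The genome-wide difference of -0.525 points was -0.548 on plus-strand and -0.502 on minus-strand reads, -0.328 over CpGs read in both groups, -0.578 as a mean of 1 kb windows, -0.570 without the 76 regions of unequal zero CpGs, and 0.0192 as a mean of CpG levels at 5 reads, where CpG-dense windows hold much of the depth. Of the 238921 windows of 1 kb with enough reads, 2605 were past 30 points. On plus-strand reads alone 936 of 60894 were, and on minus-strand reads alone 914 of 60984. At a minimum of 20 reads 9050 of 458908 were, and at 50 reads 455 of 85976. The number of windows with enough reads thus changed along with the count. Of the windows past 30 points, the share higher in KO was 47.8%, and 57.4%, 58.4%, 43.8% and 65.7% in these alternatives in turn. Of 22111 windows of 100 kb, 2267 were past 5 points, and at a minimum of 1000 reads 1386 of 14259 were. Numbers of windows were labelled as close or moved by their counts, not by their shares of the windows with enough reads.

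Among 1 kb classes, the difference at 30 to 39 CpGs was 0.155 on plus-strand and -0.0765 on minus-strand reads. At 40 to 49 CpGs it was 0.480 and 1.20 on these strands, and at 60 or more it was 0.678 and 0.589. Without the 76 regions it was -0.894 at 10 to 19 CpGs, 1.02 at 40 to 49 and 0.595 at 60 or more. Among 100 kb classes it was then -0.661 (under 500 CpGs), -0.597 (750 to under 1000), -0.635 (1000 to under 1500), -0.460 (1500 to under 2000) and 0.0407 (2000 or more). At 1500 to under 2000 CpGs it was -0.616 on plus-strand and -0.448 on minus-strand reads. At 2.01 reads per CpG in KO and 2.17 in WT, most single CpGs and most 1 kb windows had too few reads for the minimums used here.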

Other observations

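Chromosomes X and Y were listed in the files and are in none of the comparisons of the report; X was added to the genome-wide difference as 1 alternative, which gave -0.534 points. Chromosome X had a level of 69.6% in KO heads and 70.5% in WT heads, and its windows of 40 or more CpGs had 32.7% in KO and 31.8% in WT, above the 9.23% in KO and 8.51% in WT of such windows on chromosomes 1 to 19. Reads per CpG on X were 0.518 of the value for chromosomes 1 to 19 in KO and 0.524 in WT, and on Y they were 0.454 in KO and 0.502 in WT. Among the 32439 CpGs with at least 10 reads in each group, 1 was at least 80 points higher in KO, on chromosome 11, and 0 were at least 80 points lower.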
